A study of Saccharomyces cerevisiae with 4 samples.

Results

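The 10 genes described here encode the acid phosphatases PHO5, PHO3, PHO11 and PHO12, the phosphate transporters PHO84 and PHO89, the vacuolar phosphatase PHO8, and PHO4, PHO81 and SPL2, which regulate phosphate uptake, in budding yeast (Saccharomyces cerevisiae). They were found by symbol in the array's probe annotation, which gave 9 of the 9335 probe sets. Of the 10 genes, 8 had an own probe set and entered the comparison of 5656 genes, while PHO11 and PHO12 share 1 probe set, so that its value belongs to neither alone. The set was chosen by symbol, but with the mutant and wild-type signals of these same arrays known, in which PHO84 and PHO5 differ. The changes of the 10 genes are therefore given as a description, with counts past the threshold but no p-value of their own.

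The data are 4 Affymetrix arrays read in a single colour, 2 from cells with histone H3 K4,36,79R and 2 from wild-type cells. In the mutant H3, arginine replaces the lysines at positions 4, 36 and 79, which are methylated by Set1, Set2 and Dot1. Both groups were grown in selective galactose medium to mid-log phase, kept in selective glucose medium for 9 hours and harvested at an OD600 of 0.5 to 0.7. Glucose shuts off a wild-type H3 gene, which leaves the mutant to make K4,36,79R H3. How much wild-type H3 protein remained after 9 hours is not measured by these arrays. The series text calls the arrays of a group replicate cultures, and the labels used here do not give the strains' other alleles or the phosphate content of the medium. The question is which transcripts depend on the mutated lysines.

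When phosphate is plentiful, the cyclin Pho80 and the kinase Pho85 phosphorylate the transcription factor Pho4 and keep it out of the nucleus. When phosphate is scarce, the inhibitor Pho81 blocks that kinase, and Pho4 enters the nucleus and, with Pho2, activates genes for phosphate uptake and release. The PHO5 promoter is a textbook case of chromatin control, since its positioned nucleosomes are lost on activation.

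After scaling to a common median, log2 values across genes gave r = 0.983 between the 2 mutant arrays, r = 0.986 between the 2 wild-type arrays and r = 0.959 to 0.975 across groups. In the mutant 58 of 5656 genes rose (1.03%) and 48 fell (0.849%) in limma, at a Benjamini-Hochberg adjusted p under 0.05 over all genes, which is the threshold used throughout. At an unadjusted p under 0.05 there were 1314 genes (23.2%). The counts depend on the arrays and the scaling, with 0 in either direction without either mutant array, 66 higher and 1065 lower on the values as deposited, and 425 higher and 283 lower with the replicate number as a block. The 10 control probe sets for ribosomal RNA all lay higher on the mutant arrays (median log2 change 1.43), and the 3' over 5' signal ratio of ACT1 was 1.19 and 1.23 in the mutant arrays and 1.14 and 1.13 in the wild-type arrays. Their part in the changes below was not tested. All 3 H3 probe sets are annotated to both HHT1 and HHT2 and disagree. The brightest had 5308 and 2574 in the mutant arrays and 3098 and 2357 in the wild-type arrays, and the one marked as shared sequence had 144 and 122 against 483 and 497, so they do not check the labels.

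The phosphate transporter gene PHO84 and the acid phosphatase gene PHO5 were higher in the H3 mutant, 4.36-fold and 2.77-fold by mean signal. The other transporter gene, PHO89, and the probe set shared by PHO11 and PHO12 had lower mean signals in the mutant, and neither passed the threshold. Of the 8 separately measured genes 2 passed upward and 0 downward, beside 1.03% and 0.849% of all genes tested. Of the same 8, 2 had an unadjusted p under 0.05, as did 23.2% of all genes tested. The median log2 change of the 8 was 0.27, beside 0.018 over all genes tested. On 5 of the 8 both mutant arrays lay above both wild-type arrays and on 2 both lay below, where 28.1% and 27.2% of all genes did so. Because this contrast served in choosing the genes, nothing is read from these counts.

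**Figure D1:**
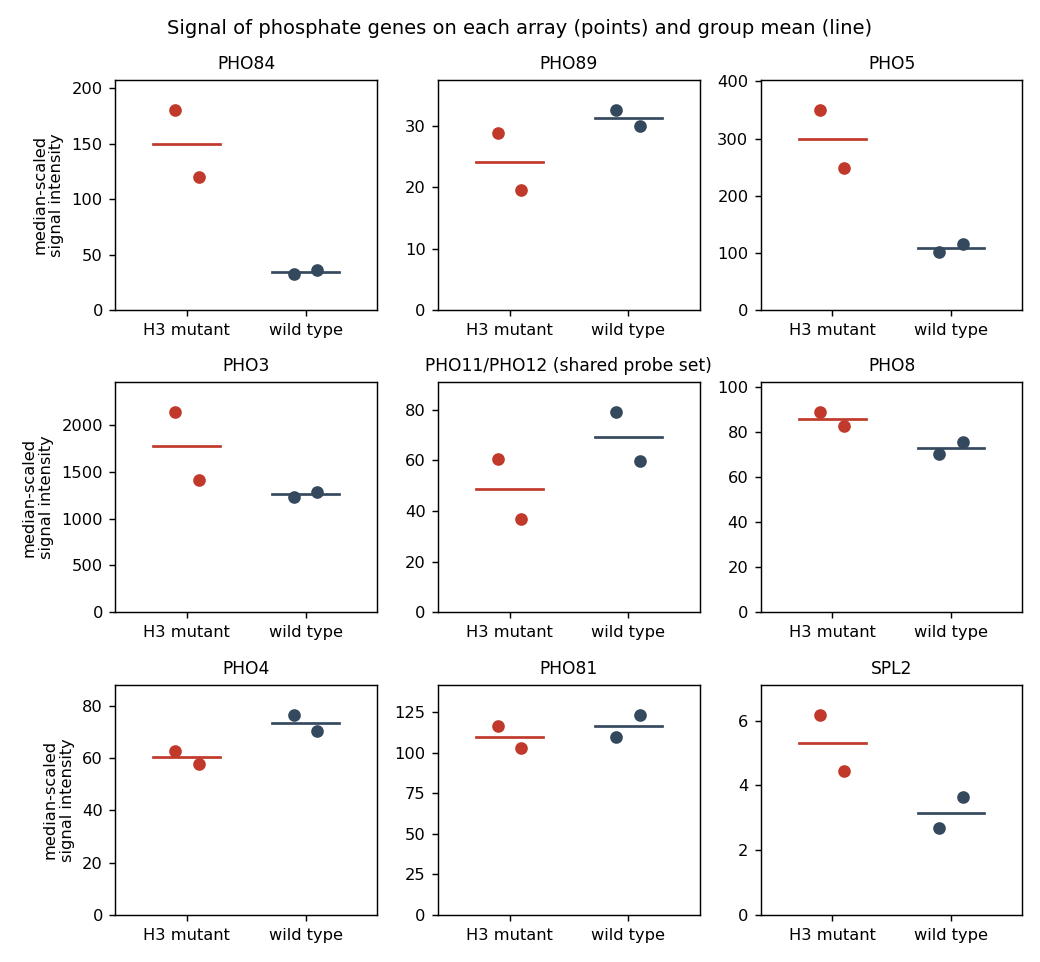
Median-scaled signal intensity (vertical axis, linear and starting at 0) of the 9 probe sets on each array, with H3 mutant arrays on the left and wild-type arrays on the right of each panel; points are arrays and lines are group means. PHO84 and PHO5 have the highest ratios of mutant to wild-type mean, 4.36 and 2.77, and mutant replicate 1, the left point of each mutant pair, lies above mutant replicate 2 in all 9 panels.

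Pho84 is the main high-affinity transporter of phosphate in the plasma membrane. PHO84 had scaled signals of 181 and 119.7 in the mutant arrays, against 32.6 and 36.2 in the wild-type arrays. Both mutant arrays stood well above both wild-type arrays, but they also differed from each other far more than the wild-type arrays did. The group means were 150.2 ± 43.1 in the mutant and 34.4 ± 2.59 in wild type (SD, n = 2 each). The log2 change, on signal plus a pseudocount of 5.71, was 1.93 ± 0.22 (SE, limma), with a 95% interval of 1.42 to 2.44. It was the fifth largest rise of all genes tested. In RNA from whole cultures a rise in every cell and a larger rise in some cells cannot be told apart.

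Pho89 is the second high-affinity transporter, which takes up phosphate with sodium and works best at alkaline pH. PHO89 had 28.8 and 19.5 in the mutant arrays, against 32.6 and 29.9 in the wild-type arrays. The groups did not overlap, but the nearest arrays of the 2 groups differed by only 0.04 on the log2 scale, and PHO89 did not pass. Its log2 change was -0.33, with a 95% interval of -0.79 to 0.14.

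The 2 transporters can also be set against each other within an array, where a constant on the array cancels. The PHO84 signal divided by the PHO89 signal was 6.27 and 6.15 in the mutant arrays and 1.00 and 1.21 in the wild-type arrays. The 2 mutant arrays nearly coincide in this ratio, although each gene alone read about 1.5 times higher on one mutant array than on the other (1.51 for PHO84 and 1.48 for PHO89). That gap was not shared by all genes, with 1.07 for PHO8, 1.08 for PHO4 and a median of 1.10 over all genes tested. Other ratios differed more between the mutant arrays, as for PHO5 divided by PHO4 (5.58 and 4.29) and by PHO8 (3.95 and 3.01). PHO84 divided by PHO5 differed less than these, with 0.516 and 0.482 in the mutant arrays and 0.321 and 0.316 in the wild-type arrays. In the wild-type arrays PHO5 divided by PHO4 gave 1.32 and 1.63, and divided by PHO8 1.45 and 1.52. Brightness differs between probe sets for technical reasons, so the PHO84 to PHO89 ratio shows an unequal change and not which gene has more transcript. No test was made of it, since the pair was chosen after the values were seen, and an exact permutation test of 2 arrays against 2 could not go below p = 0.333.

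Pho5 is the main secreted acid phosphatase, which frees phosphate outside the cell and is repressed when phosphate is plentiful. PHO5 had 350.4 and 248 in the mutant arrays, against 101.6 and 115 in the wild-type arrays. The lower mutant array was still more than 2 times the higher wild-type array. The means were 299 ± 72.2 and 108 ± 9.35 (SD, n = 2 each) in mutant and wild type, and the log2 change was 1.40 ± 0.20 (SE), with a 95% interval of 0.93 to 1.88. PHO5 stood at rank 25 among the rises.

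PHO3, which lies next to PHO5 in the reference gene table and encodes a close relative of it, is a constitutive acid phosphatase gene that thiamine represses. PHO3 had 2131 and 1415 in the mutant arrays, against 1230 and 1282 in the wild-type arrays. Both mutant arrays were higher, yet the gap between the mutant arrays was wider than that between the lower one and wild type. The log2 change was 0.47 ± 0.28 (SE), with a 95% interval of -0.19 to 1.12, and PHO3 did not pass. On the values as deposited the change was 0.07. Those values overlap, with 1901 and 1181 in the mutant arrays, against 1378 and 1479 in the wild-type arrays. The PHO5 signal divided by the PHO3 signal was 0.164 and 0.176 in the mutant arrays and 0.0826 and 0.0895 in the wild-type arrays, so that within each array PHO5 gained relative to PHO3, by 1.98 times on the mean. Neither probe set carries a suffix for shared sequence. How far RNA of one gene binds probes of the other was not tested.

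PHO11 and PHO12 encode 2 further secreted acid phosphatases that are repressed by phosphate. Their shared probe set had 60.6 and 36.9 in the mutant arrays, against 79.0 and 59.6 in the wild-type arrays. The groups overlap, since the higher mutant array just exceeds the lower wild-type array. In a fit of all 9335 probe sets, where 0.118% were called higher and 0.225% lower, it did not pass. Its log2 change was -0.48 (SE 0.26), with a 95% interval of -1.11 to 0.15. PHO5 divided by this shared set gave 5.78 and 6.73 in the mutant arrays and 1.29 and 1.93 in the wild-type arrays.

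PHO8 encodes the repressible alkaline phosphatase of the vacuole. PHO8 had 88.7 and 82.6 in the mutant arrays, against 70.0 and 75.5 in the wild-type arrays. The arrays of each group lay close together and the groups did not overlap. The log2 change was 0.22 ± 0.15 (SE), with a 95% interval of -0.14 to 0.58, and PHO8 did not pass. Its sign rests on the scaling, since the values as deposited, in which all genes have a median change of -0.32, gave -0.15.

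**Figure D2:**
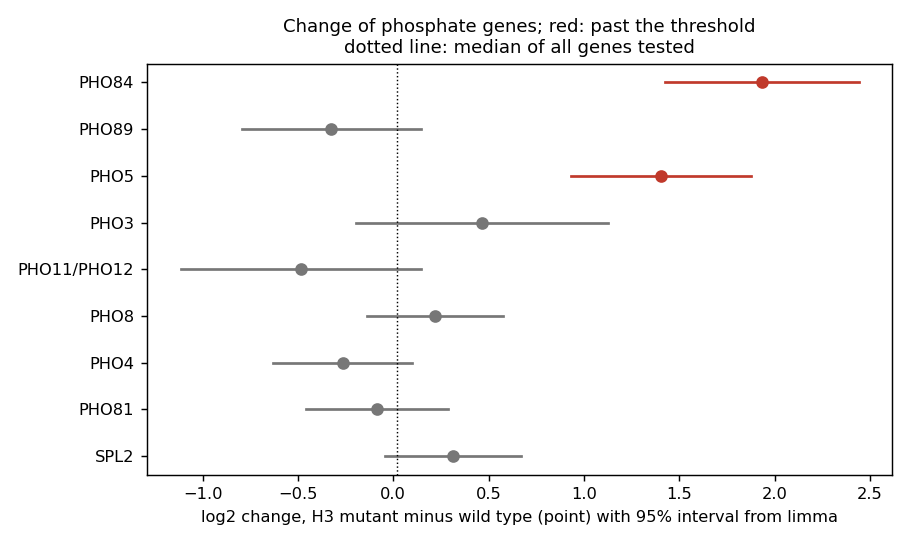
Log2 change of each probe set (horizontal axis, H3 mutant minus wild type, on scaled signal plus pseudocount) with its 95% interval from limma, in red where the threshold was passed; the dotted line is the median of all genes tested, 0.018. PHO84 at 1.93 and PHO5 at 1.40 stand apart, and the intervals of the other 7 probe sets include 0.

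None of the 3 regulator genes passed. PHO4, the transcription factor gene, had 62.8 and 57.9 in the mutant arrays, against 76.7 and 70.6 in the wild-type arrays. Both mutant arrays were lower, by a log2 change of -0.26 ± 0.15 (SE) with a 95% interval of -0.63 to 0.10, and PHO4 did not pass. On the values as deposited its change was -0.63, which passed.

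PHO81, the gene of the kinase inhibitor and itself a Pho4 target, had 116 and 103 in the mutant arrays, against 109.6 and 123 in the wild-type arrays. The groups overlap, and the log2 change was -0.09, with a 95% interval of -0.46 to 0.29.

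SPL2 encodes a small protein that lowers low-affinity phosphate uptake and is another Pho4 target. SPL2 had 6.18 and 4.45 in the mutant arrays, against 2.68 and 3.64 in the wild-type arrays. Both mutant arrays were higher, but all 4 signals lie near or below the pseudocount of 5.71, which understates the change. The log2 change was 0.31 ± 0.15 (SE), and the ratio of mean signals was 1.68. SPL2 did not pass.

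**Figure D3:**
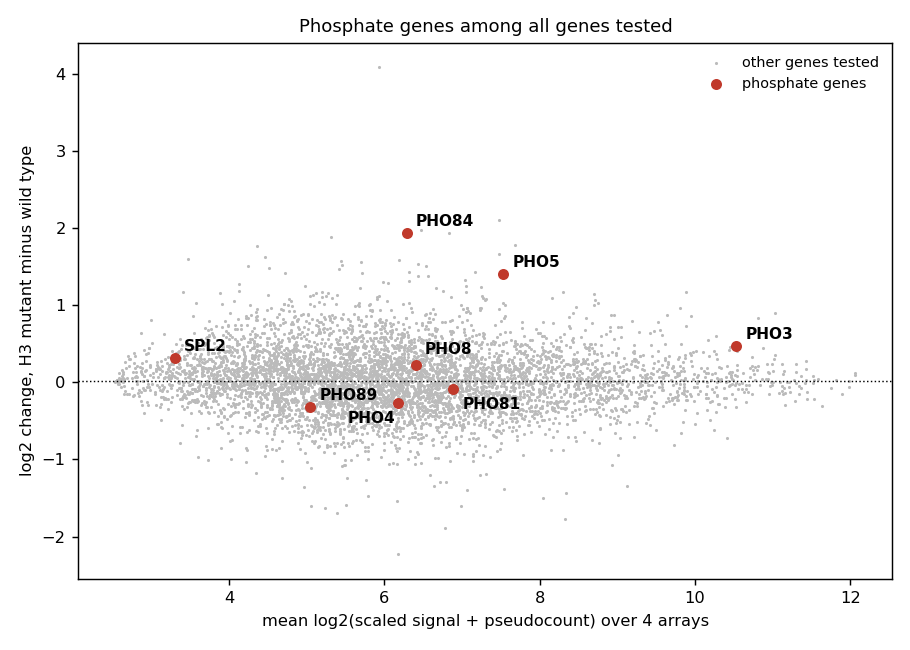
Log2 change (vertical axis, H3 mutant minus wild type) against the mean log2 signal plus pseudocount over the 4 arrays (horizontal axis) for all 5656 genes (grey) and the 8 phosphate genes with an own probe set (red). PHO84 and PHO5 lie at the upper edge of genes of like brightness, PHO3 is among the brightest genes and SPL2 among the dimmest.

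On most of these genes the 2 mutant arrays lay further apart than the 2 wild-type arrays, with PHO8 and PHO4 as the exceptions. All 9 probe sets read higher on mutant replicate 1 than on mutant replicate 2, with a median ratio of 1.41, and over all genes tested 62.8% did so, with a median ratio of 1.10. For the 8 separately measured genes the log2 gap between mutant arrays ran from 0.10 for PHO8 to 0.59 for PHO3, with a median of 0.34, and that between wild-type arrays from 0.06 to 0.17, with a median of 0.12. Over all genes the median gaps were 0.24 and 0.12. PHO84 and PHO5 keep their direction when either mutant array is left out, but neither then passes. Without mutant replicate 1 the changes were 1.65 for PHO84 and 1.16 for PHO5, and without mutant replicate 2 they were 2.22 and 1.65. Either fit leaves 1 mutant array and takes the spread from the wild-type arrays alone, so its lack of calls does not measure the 2 changes. The calls as reported need both mutant arrays. In the fit of all 9335 probe sets PHO84 passed and PHO5 did not.

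**Figure D4:**
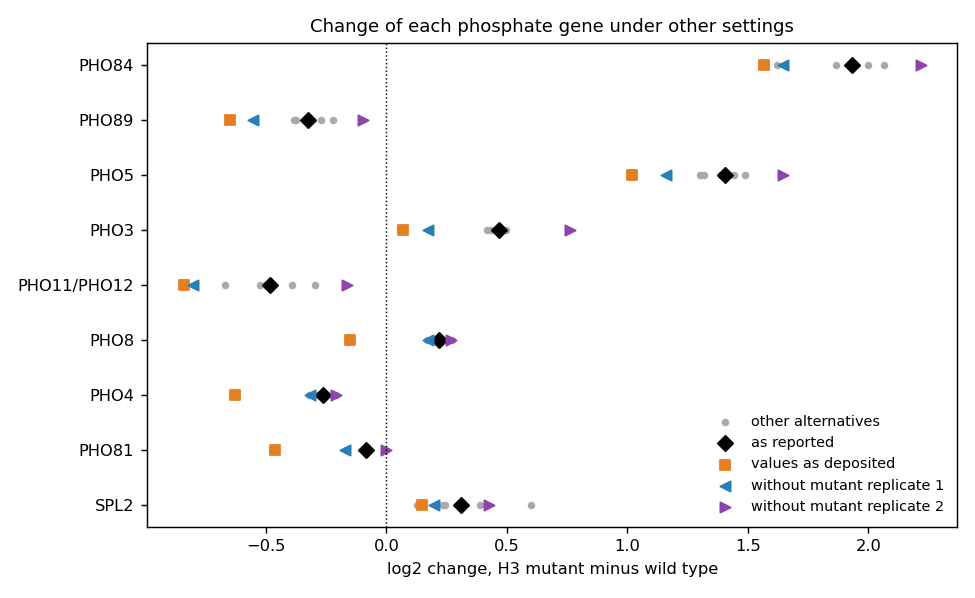
Log2 change of each probe set (horizontal axis, H3 mutant minus wild type) as reported (black), on the values as deposited (orange), without mutant replicate 1 (blue), without mutant replicate 2 (purple) and under the other alternatives (grey). PHO84 runs from 1.57 to 2.22 and PHO5 from 1.02 to 1.65, and PHO8 changes sign on the values as deposited.

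A further list held 20 genes of phosphate signalling, low-affinity transport and other reported Pho4 targets, all of which were measured. None passed in limma over all genes, where 1.03% of all genes tested rose and 0.849% fell. Of the 20, 4 (20.0%) had an unadjusted p under 0.05, beside 23.2% of all genes, and the median log2 change was 0.01. The 3 highest changes were those of PHO85, PHO23 and PHO80. PHO85, the kinase gene, had 127 and 117 in the mutant arrays, against 143 and 28.5 in the wild-type arrays, so that both mutant arrays lie between the wild-type arrays and the log2 change of 0.84 (limma adjusted p = 0.432) is set by wild-type replicate 2. Without wild-type replicate 1 the PHO85 change passed. PHO80, the cyclin gene, had 34.3 and 29.2 in the mutant arrays, against 19.9 and 17.1 in the wild-type arrays. Both mutant PHO80 signals were higher, with a log2 change of 0.63 (limma adjusted p = 0.0979). PHO23, which encodes a subunit of the Rpd3L histone deacetylase complex, had 106 and 66.0 in the mutant arrays, against 51.7 and 43.1 in the wild-type arrays, with a log2 change of 0.76 (limma adjusted p = 0.126).

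The lowest values of that list were -0.38 for GTR1, a GTPase gene of nutrient signalling, -0.25 for PHM6, a phosphate-regulated gene, and -0.21 for PSE1, the importer of Pho4 into the nucleus. GTR1 fell short of the threshold (limma adjusted p = 0.186), with 82.8 and 88.0 in the mutant arrays, against 115 and 111 in the wild-type arrays. The low-affinity transporter genes PHO87, PHO90 and PHO91 had log2 changes of -0.17, 0.01 and 0.21. GIT1 and GDE1, which serve the uptake and breakdown of glycerophosphodiesters, had -0.03 and 0.51, and PHM8, a phosphatase gene, had 0.34.

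Among 10 genes of polyphosphate and inositol pyrophosphate metabolism 1 rose and 0 fell, beside 1.03% and 0.849% of all genes tested. Of the 10, 3 (30.0%) had an unadjusted p under 0.05 in limma, beside 23.2% of all genes, and the median log2 change was 0.20. The gene that rose was SIW14, an inositol pyrophosphatase gene, whose rise was known when the list was written. SIW14 had 367 and 261 in the mutant arrays, against 94.8 and 93.7 in the wild-type arrays (log2 1.66, limma adjusted p = 0.0233). DDP1, a polyphosphate and diphosphoinositol phosphohydrolase gene, had 0.64 and the exopolyphosphatase gene PPX1 had -0.61 (limma adjusted p = 0.195 and 0.0908). The DDP1 value leans on wild-type replicate 2, with 44.1 and 43.4 in the mutant arrays, against 35.6 and 18.8 in the wild-type arrays. The subunits of the vacuolar polyphosphate polymerase did not move as a block, with log2 changes of 0.40 for VTC3, 0.02 for VTC1, -0.29 for VTC2 and -0.14 for VTC4, none of which passed. A second probe set of VTC4, not used in the gene fit, gave -0.02.

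Since thiamine represses PHO3, 21 thiamine genes were listed, of which 13 had an own probe set. None of the 13 passed in limma, where 1.03% of all genes tested rose and 0.849% fell. Of the 13, 3 (23.1%) had an unadjusted p under 0.05, beside 23.2% of all genes, and their median log2 change was 0.00. The highest were THI72, a thiamine transporter family gene, at 1.12 (limma adjusted p = 0.0659), THI21, a kinase gene of thiamine synthesis, at 1.08 and the putative transporter gene THI73 at 0.53. THI72 was read by a probe set whose suffix marks shared sequence, and its other probe set gave 0.42. THI21 had 36.5 and 31.2 in the mutant arrays, against 29.8 and 4.16 in the wild-type arrays, so that 1 wild-type array sets its value. The lowest were THI2, an activator of thiamine genes, at -0.25, the thiamine transporter gene THI7 at -0.20 and THI20 at -0.15. The probe set shared by THI5, THI11, THI12 and THI13 had -0.18, that of SNZ2 and SNZ3 -0.28 and that of SNO2 and SNO3 -1.12, and none of the 3 passed in the fit of all probe sets.

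**Figure D5:**
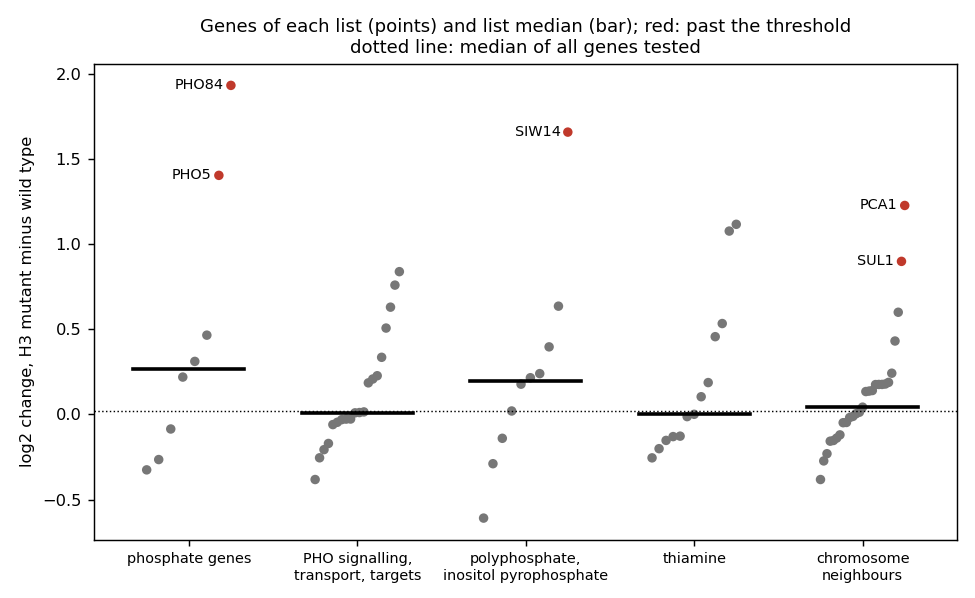
Log2 change (vertical axis, H3 mutant minus wild type) of the genes of each list that have an own probe set, in red where the threshold was passed; bars are list medians and the dotted line is the median of all genes tested. PHO84 and PHO5 pass among the phosphate genes, SIW14 among polyphosphate and inositol pyrophosphate genes, PCA1 and SUL1 among the chromosome neighbours and none among the thiamine genes or the further genes of phosphate signalling.

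The genes next to the 10 were read as well, the nearest 2 on either side in the reference gene table. Of 34 such genes 27 had an own probe set, of which 2 rose and 0 fell, beside 1.03% and 0.849% of all genes tested. Of the 27, 4 (14.8%) had an unadjusted p under 0.05 in limma, beside 23.2% of all genes, and the median log2 change was 0.04. Of the genes beside PHO5, PHO3 had a log2 change of 0.47, with both mutant arrays higher after scaling but not on the values as deposited. PBY1, on the other side, had 53.9 and 55.1 in the mutant arrays, against 59.3 and 49.8 in the wild-type arrays (log2 0.00). On either side of PHO84 the table lists an antisense RNA, YNCM0001W, and YML122C, neither of which has a named probe set here. The next genes out, TUB3 and GTR1, had -0.16 and -0.38.

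Both neighbours that rose lie beside PHO89, which did not itself pass. PCA1, a metal-transporting ATPase gene, had 82.6 and 64.5 in the mutant arrays, against 28.5 and 27.4 in the wild-type arrays (log2 1.23, limma adjusted p = 0.0338). SUL1, a sulfate transporter gene, had 17.7 and 15.0 in the mutant arrays, against 5.80 and 6.42 in the wild-type arrays (log2 0.90, limma adjusted p = 0.0426). PCA1 is the immediate neighbour of PHO89 and SUL1 the next one.

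The pattern over the 4 arrays was compared with that of every gene tested, by the Euclidean distance between log2 values after each gene's wild-type mean was subtracted. The nearest to PHO84 were SIW14 at a distance of 0.41, YMR085W at 0.50 and SAS4, a gene of a histone acetyltransferase complex, at 0.55. PHO5 was only the eleventh nearest to PHO84, at 0.75. The nearest to PHO5 were YKR104W at 0.15, the autophagy gene ATG41 at 0.16 and RTC1, a gene of the SEA complex at the vacuole, at 0.20. All 6 named genes rose. With 4 arrays in 2 groups such likeness says mainly that the rises are of like size.

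SIW14, the nearest to PHO84 in pattern, is also the immediate neighbour of the H3 gene HHT2 in the reference gene table, which was looked up after its values were seen. KTR5, beyond the H4 gene HHF2 on the other side of HHT2, had 168 and 119 in the mutant arrays, against 82.2 and 92.6 in the wild-type arrays, with a log2 change of 0.66 (limma adjusted p = 0.115). At the other H3 gene, HHT1, the adjacent gene IPP1 had a log2 change of -0.20. FLR1, beyond the H4 gene HHF1 on the other side of HHT1, had 0.41, and neither passed. The labels used here do not say how the H3 loci of the strains were altered. Whether the position of SIW14 bears on its signal was not tested. HHT1 and HHT2 are not among the neighbours of any of the 10 phosphate genes.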

How the data were processed

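The authors deposited linear signal intensity per probe set, computed with MAS5 per the submitters' processing notes (version: not given in the sources used). The trimmed means (2 to 98 percent) of the mutant arrays were 0.849 and 0.70 of those of the wild-type arrays. All 4 arrays were therefore brought to the same median over their 9335 probe sets, namely the average of their deposited medians. Then 5.71, the 20th percentile of scaled signal, was added as a pseudocount and log2 taken, which understates changes of dim genes. In the annotation 6504 probe sets have 1 symbol, 328 have several and 2443 have none, beside 60 controls. The fit took 1 probe set for each of 5656 genes, preferring sets with no shared-sequence suffix and then the brightest, which left 211 genes on suffixed sets.

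Groups were taken from sample titles. Mutant minus wild type was fitted with limma 3.58.1 in R 4.3.3 (eBayes with trend, two-sided). The number of arrays limits the precision. On simulated arrays with 5656 genes the fit called 83% of genes changed 2-fold in signal plus pseudocount, 97% of those changed 4-fold and 9 of 5456 unchanged genes, and 0 genes when none was changed. In the simulation no gene's noise was linked to another's, and both groups had the same noise. In the data the median log2 gap between arrays was 0.24 in the mutant and 0.12 in wild type. The shares called therefore do not give the power of the real comparison.

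Members and lists were chosen with earlier results of these data known. Named genes are all members, in each list those past the threshold and the 3 highest and 3 lowest, neighbours past the threshold or adjacent to PHO84 or PHO5, and the 3 genes nearest to PHO84 and to PHO5. Other genes of the lists, within-array ratios, KTR5 and the neighbours of the H3 genes were added after their values were seen. HOR2 and PHO88 were matched under the symbols GPP2 and SND3 through the reference gene table of assembly R64, used for names and neighbours only. A planned description of promoter and protein sequences was not made, as no sequences were used here.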

Additional observations from a re-analysis of the deposited data

How the results depend on the processing

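Each array was left out in turn, which lends the remaining array of that group the spread of the other group. Over these 4 fits 0 to 196 genes were higher and 0 to 85 lower, 0 to 2 phosphate genes were higher, 0 to 1 gene of the signalling list, 0 to 2 of the polyphosphate list and 0 to 2 thiamine genes; all the counts of 0 higher genes came without a mutant array for the full set, the phosphate genes and the polyphosphate list. PHO85, DDP1, THI21 and THI72 were added without wild-type replicate 1. On the values as deposited 1065 genes were lower, with PHO4 (1 phosphate gene), GTR1 (1) and PPX1 and VTC2 (2) among them, and PHO8 reversed to -0.15. The fit of all probe sets called 11 higher and 21 lower, with 1 phosphate gene, PHO84. A filter on dim genes gave 92 higher, a robust variance 159 higher and 118 lower with 1 thiamine gene, THI72, and a variance without trend 30 lower. The replicate numbers were not found to pair the arrays (correlation of replicate differences -0.02 over genes). With a replicate block 425 genes were higher and 283 lower, including PHO84 and PHO5, 3 signalling genes (PHO80, PHO85 and PHO23), 2 polyphosphate genes (SIW14 and DDP1) with 1 lower (PPX1) and 2 thiamine genes (THI21 and THI72). Under quantile normalization and pseudocounts of 1 and 20 the same 2 phosphate genes passed, PHO84 and PHO5. PHO84 ran from 1.57 to 2.22 and PHO5 from 1.02 to 1.65 over 13 alternatives.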
